A study of Mus musculus with 16 samples.

Results

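Solute carriers are membrane proteins that move sugars, amino acids, lactate, vitamins, metals, ions and drugs across the plasma membrane and the membranes of organelles. Their genes are named Slc or Slco followed by a family number. Brain endothelial cells, which are sealed to each other by tight junctions, depend on such carriers because few water-soluble molecules pass between the cells: Slc2a1 (GLUT1) brings in glucose, Slc16a1 (MCT1) lactate and ketone bodies, and Slc7a5 (LAT1) large neutral amino acids. The genes described here were chosen by symbol and by level: a symbol of that form, and a mean over all 16 libraries of at least 5 CPM, the count of a gene scaled by the total of its library. Of 37003 genes in the table, 398 had such a symbol and 208 of these reached the level. The mean level chose them, so that they are expressed is a description and not a result. The lowest inside the limit were Slc10a1, Slc2a3 and Slc19a2 at 5.11 CPM each, and just outside it lay Slc5a10 at 4.97 CPM and Slc28a3 at 4.92 CPM.

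The 16 libraries were made from bECs (brain endothelial cells), enriched with CD31 beads and then sorted as living cells without CD45 and with CD31. There were 4 libraries per genotype and surgery, the genotypes being CTRL and YT-iKO and the surgeries sham and MCAo. MCAo is a 30-minute closure of the middle cerebral artery followed by reperfusion, and RNA was taken 72 hours after MCAo or sham surgery. YT-iKO mice carried Yap fl/fl and Taz fl/fl alleles and the Pdgfb-iCreER-eGFP transgene, so that tamoxifen deletes Yap1 and Wwtr1 (the gene of TAZ) where the Pdgfb sequences drive Cre, mainly endothelium. CTRL littermates had the same floxed alleles without the transgene, and both genotypes received tamoxifen before surgery. Each library is a pool of brain tissue from several adult mice, of a study that used both sexes. After MCAo the ischemic territory and the matching area of the other hemisphere were dissected, and whether a library holds both is not stated. The transgene, its eGFP and the lost genes differ between the genotypes together and cannot be told apart.

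YAP and TAZ are transcriptional coactivators that bind TEAD factors and are kept out of the nucleus when the Hippo pathway is active. The comparisons ask which carriers differ when endothelial YAP and TAZ are lost, without and with a stroke, and which differ after a stroke in each genotype. Yap1 was 112 ± 0.511 CPM (SD, n = 4) in CTRL sham and 49.3 ± 9.70 CPM in YT-iKO sham, and Wwtr1 was 265 ± 9.66 and 72.1 ± 20.9 CPM. Both were lower in YT-iKO after sham (log2 differences −1.18 and −1.88; edgeR adjusted p = 0.0371 and 0.00381) and after MCAo (−1.17 and −1.88; adjusted p = 0.0478 and 0.00356). All per-library levels below are CPM scaled by TMM factors, which set the libraries to a common level over most genes. Statements of overlap between groups refer to this scale.

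The libraries held 11418262 to 23074547 counts. The sum of 7 endothelial markers, among them Pecam1, Cdh5, Cldn5 and Flt1, ranged from 7372 to 14742 CPM, and none of the 7 was at 0 in any library. The libraries differed in an even background of reads, measured on 1466 autosomal olfactory, vomeronasal and taste receptor genes: after sham it was 0.160 to 0.207 CPM per kilobase of exon in CTRL and 0.156 to 0.568 in YT-iKO, and after MCAo 0.105 to 0.392 and 0.0308 to 0.576. For 126 of the 208 carrier genes this background would supply at least 5% of the mean level, for 27 at least 20% and for 4 at least 50%. In bulk RNA fewer cells of a type and less RNA per cell cannot be told apart, and the libraries carried no molecular identifiers, so the counts are of reads after PCR and not of molecules.

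The 208 genes took 1.68% to 2.38% of all counts in a library. The mean share after sham was 2.24% for CTRL (SD 0.133, n = 4) and 1.95% for YT-iKO (SD 0.102), and after MCAo 2.06% (SD 0.083) and 1.80% (SD 0.119). The share was uneven between genes: the first gene held 14.6% of it, the first 5 held 48.6%, the first 12 held 67.7% and the first 50 held 86.3%. As few as 22 genes had a mean of at least 100 CPM, 8 of at least 500 CPM and 4 of at least 1000 CPM, while 57 lay under 10 CPM.

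**Figure D1:**
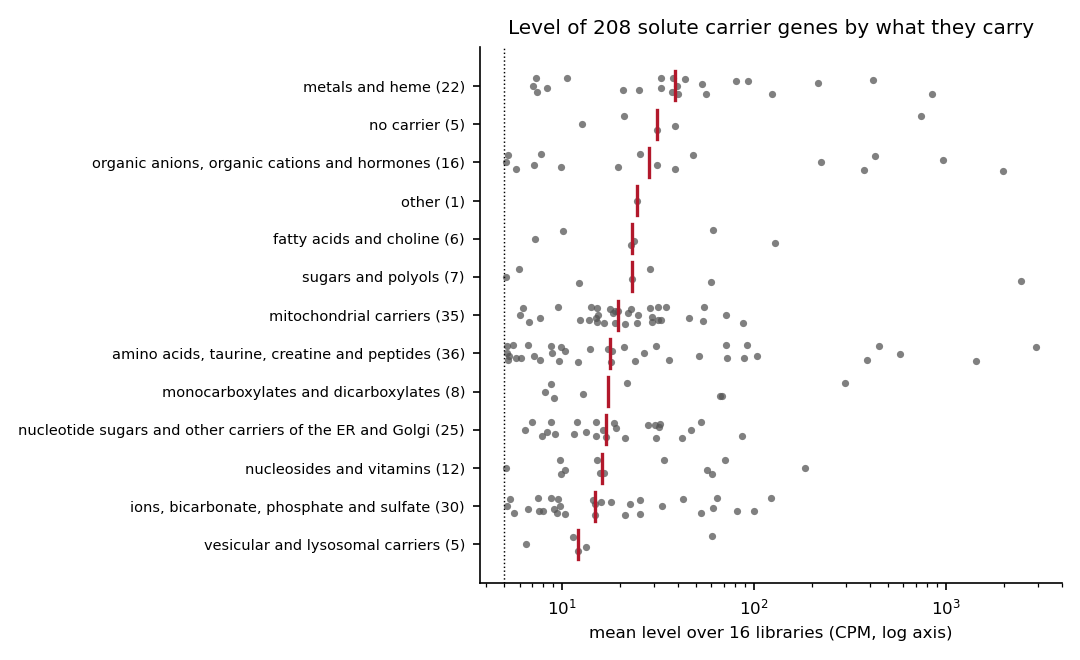
Mean level over 16 libraries (CPM, log axis) of 208 solute carrier genes, 1 point a gene, by the class of what they carry; red bars are class medians, numbers in brackets are genes, and the dotted line is the 5 CPM limit. Class medians lie between 12.1 and 38.7 CPM, and single genes reach 2929 CPM.

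By reads, the taurine carrier Slc6a6 stood first with a mean of 2929 CPM, before Slc2a1 with 2456 CPM, the organic anion carrier Slco1a4 with 1994 CPM and Slc7a5 with 1435 CPM. Next came Slco1c1 (963 CPM), which carries thyroxine, the zinc importer Slc39a10 (843 CPM), Slc9a3r2 (745 CPM) and the cationic amino acid carrier Slc7a1 (579 CPM). Slc38a3, a glutamine carrier, followed with 446 CPM, the organic anion carrier Slc22a8 with 429 CPM, the zinc exporter Slc30a1 with 418 CPM and Slc3a2, the heavy chain that pairs with Slc7a5, with 388 CPM. Per kilobase of exon the order changed: Slc2a1 led at 701 CPM per kilobase, then Slc7a5 at 387, Slc6a6 at 346, Slco1a4 at 311 and Slc9a3r2 at 282. Slc9a3r2 codes for a scaffold protein that binds an ion exchanger and is no carrier itself. The symbol admitted 4 other genes that are no carriers (Slc9a3r1, Slc7a6os, Slc2a4rg-ps and Slc4a1ap).

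The 36 carriers of amino acids, taurine, creatine and peptides held 32.7% of the level summed over the 208 genes. Carriers of organic anions, organic cations and hormones, 16 genes, held 20.8%, the 7 of sugars and polyols 12.9% and the 22 of metals and heme 11.1%. The 35 mitochondrial carriers of family 25 held 4.45% and stayed between 6.01 and 87.6 CPM. Most of them exchange metabolites across the inner mitochondrial membrane. The 30 carriers of ions, bicarbonate, phosphate and sulfate held 4.14%, and the 25 of nucleotide sugars and other carriers of the ER and Golgi 2.93%. The number of genes did not set the share: the 7 sugar carriers, with Slc2a1, held more than the 35 mitochondrial carriers.

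A list of 33 carriers known for the blood-brain barrier held 74.2% of the summed level of the 208 genes; the list was drawn up with levels in these data known, so that all 33 were among them is no result. Its members spread from Slc1a4 (5.25 CPM) and Slc1a5 (7.69 CPM), both neutral amino acid carriers, to Slc6a6. Carriers that are typical of other brain cells were low: 7 of 22 reached 5 CPM, the highest being the glutamate carrier Slc1a2 of astrocytes at 18.2 CPM, and 15 did not. The other 6 were Slc6a20a (12.1 CPM), Slc6a12 (9.68 CPM), Slc12a5 (9.5 CPM), Slc1a3 (8.90 CPM), Slc38a11 (8.73 CPM) and Slc4a4 (7.59 CPM). The background of reads would supply 18.4% of the mean level of Slc1a2 and 24.4% of that of Slc1a3.

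Loss of YAP and TAZ went with lower RNA of a few single carriers. In sham-operated mice 3 of the 208 genes passed the test, all lower in YT-iKO: Slc16a4 by 2.48-fold, Slc38a5 by 3.03-fold and Slc16a1 by 2.4-fold. No carrier was called higher. Among all 31085 genes tested 0.0901% were called lower and 0.00643% higher, and among the 11624 at 5 CPM or more 0.232% and 0.0172%, beside 3 and 0 of 208 here. The other 205 genes did not pass, with log2 differences from −0.98 (Slc7a1) to 0.77 (Slc4a5, a bicarbonate carrier).

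The sequences just before the starts of these 3 genes are printed because the genes moved together and YAP and TAZ act through TEAD factors. They are RefSeq sequences of GRCm38.p6 on the plus strand, 5′ to 3′, up to the base before the RefSeq start, with capitals on the E-box CACGTG: Slc16a1 at chr3:104638414-104638663, Slc16a4 at chr3:107290980-107291229 and Slc38a5 at chrX:8271261-8271380, where only the 120 bases free of annotated exons are shown.
Slc16a1: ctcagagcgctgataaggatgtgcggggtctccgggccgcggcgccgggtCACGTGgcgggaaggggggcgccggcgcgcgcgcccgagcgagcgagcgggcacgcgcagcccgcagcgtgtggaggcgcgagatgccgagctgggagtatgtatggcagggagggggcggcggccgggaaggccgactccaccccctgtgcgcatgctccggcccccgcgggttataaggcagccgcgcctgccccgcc
Slc16a4: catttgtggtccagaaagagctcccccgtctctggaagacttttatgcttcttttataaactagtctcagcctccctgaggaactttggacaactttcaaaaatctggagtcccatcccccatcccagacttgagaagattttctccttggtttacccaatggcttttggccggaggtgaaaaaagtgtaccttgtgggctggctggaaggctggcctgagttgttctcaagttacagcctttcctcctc
Slc38a5: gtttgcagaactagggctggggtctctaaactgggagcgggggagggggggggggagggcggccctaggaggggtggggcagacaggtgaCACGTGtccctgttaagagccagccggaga

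The 250 bases before the start were 76.4% G and C in Slc16a1, 48% in Slc16a4 and 55.2% in Slc38a5. The RefSeq start used for Slc38a5 and its printed stretch lie inside the span that GENCODE M21 gives for that gene (chrX:8271133-8280179). None of the 3 windows held the TEAD motif GGAATG on either strand or the AP-1 motif TGANTCA, whose letters read the same on both strands. The E-box CACGTG, which also reads the same on both, occurred once in Slc16a1, beginning 200 bases before the start, and once in Slc38a5, beginning 30 bases before it. Over 32851 RefSeq promoter windows of that length 12.6% held GGAATG, 6.75% TGANTCA and 6.02% CACGTG. In the 220 windows of the 161 carrier genes that could be matched the shares were 14.5%, 6.36% and 10.9%. CACGTG was chosen after the sequences were seen, and a match or its absence says nothing here about binding.

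Slc16a1 (chr3:104638668-104658462, GENCODE M21 on GRCm38) codes for MCT1, which carries lactate, pyruvate and ketone bodies. Its level was 500.2, 420.5, 539 and 346 CPM in CTRL sham replicates 1 to 4 and 263, 170.0, 147 and 173 CPM in YT-iKO sham. Every YT-iKO library lay under every CTRL library. The log2 difference was −1.26 (SE 0.26; edgeR adjusted p = 0.0734). Slc16a1 was also lower in YT-iKO after MCAo: the libraries held 560.2, 305, 335 and 584 CPM in CTRL and 145, 124, 152 and 162 CPM in YT-iKO. Again no YT-iKO library reached the lowest CTRL library, with a log2 difference of −1.61 (SE 0.26; edgeR adjusted p = 0.00852).

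Slc16a4 (chr3:107291230-107312115) belongs to the same family of monocarboxylate carriers, and its substrate is less well known. In CTRL sham it measured 119, 100.2, 102 and 95.1 CPM, and in YT-iKO sham 51.7, 42.6, 30.2 and 43.0 CPM. After MCAo the values were 123, 70.5, 59.7 and 115 CPM in CTRL against 32.2, 28.9, 35.7 and 48.7 CPM in YT-iKO. In neither surgery did the genotypes overlap. The log2 differences were −1.31 (SE 0.24; edgeR adjusted p = 0.0356) after sham and −1.34 (SE 0.24; adjusted p = 0.0370) after MCAo.

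Slc38a5 (chrX:8271133-8280179) codes for SNAT5, a carrier of glutamine and other neutral amino acids. It stood at 100.2, 97.1, 87.8 and 68.4 CPM in CTRL sham and at 40.7, 21.9, 26.4 and 27.5 CPM in YT-iKO sham, again without overlap (log2 difference −1.60, SE 0.32; edgeR adjusted p = 0.0537). After MCAo the highest YT-iKO library passed the lowest CTRL library: the levels were 192, 94.2, 83.6 and 142 CPM in CTRL and 61.7, 34.6, 36.4 and 96.0 CPM in YT-iKO. That difference was −1.16 (SE 0.31; edgeR adjusted p = 0.589), while DESeq2 called it (−1.19, adjusted p = 0.0286), as did limma-voom, the fits with TMM factors of abundant genes or with the background taken off, and the fit without replicate 4 of YT-iKO MCAo. A difference between the sham and the MCAo value of Slc38a5 was not shown, since no carrier passed the test of the interaction.

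**Figure D2:**
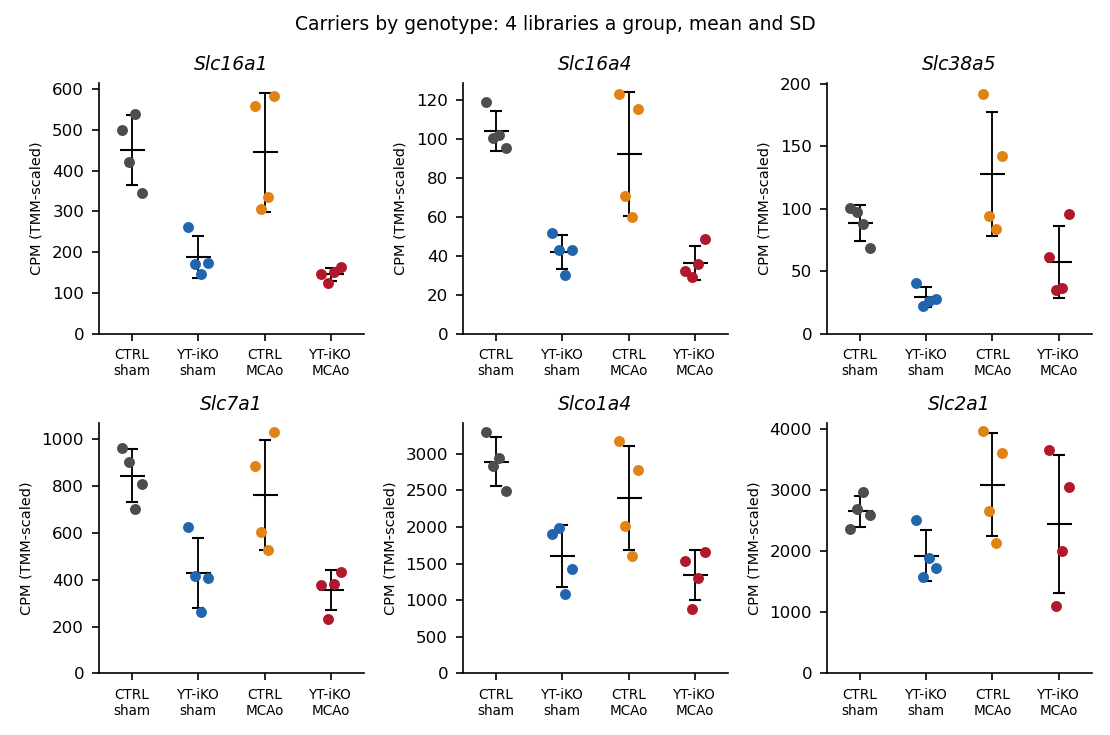
Level (CPM scaled by TMM factors, axes from 0) of 6 carriers in each of 16 libraries by group; points are libraries, and bars are the mean and SD of 4. Slc16a1 and Slc16a4 lie lower in every YT-iKO library than in any CTRL library of the same surgery, and Slc2a1 overlaps between the genotypes.

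These 3 calls depend on the libraries used. When replicate 2 of CTRL sham or replicate 4 of YT-iKO sham was left out, no carrier was called after sham, and when replicate 1 of CTRL sham or replicates 2 or 3 of YT-iKO sham were left out in turn, 1 was. The log2 difference of Slc16a1 after sham stayed between −1.44 and −1.15 over all 16 such fits. The share of all genes called in such fits is not given, so a loss of calls particular to carriers was not shown.

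After MCAo 2 of the 208 carriers were called, Slc16a1 and Slc16a4, 3.06-fold and 2.53-fold lower in YT-iKO. Of all genes tested 0.0676% were called lower and 0.00322% higher, and of those at 5 CPM or more 0.181% and 0.0086%. Leaving out replicate 4 of CTRL MCAo took away both calls, and 1 call was left without replicate 2 of CTRL sham, replicate 4 of YT-iKO sham or replicate 3 of YT-iKO MCAo. For these fits too the share of all genes called is not given. Both genes were called after sham as well, in libraries other than those of MCAo.

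Further carriers had groups that did not overlap without passing the test. After sham 15 of 208, the 3 called genes among them, were lower in every YT-iKO library and 2 were higher in every one, while 2.22% and 1.63% of all genes tested did so, and 5.32% and 0.654% of those at 5 CPM or more. After MCAo there were 5 lower, both called genes among them, and 0 higher, beside 0.415% and 0.566% of all genes tested and 0.662% and 0.551% of those at 5 CPM or more. At an unadjusted p under 0.05 there were 15 carriers after sham, beside 2.16% of all genes tested and 3.22% of those at 5 CPM or more, and 14 after MCAo, beside 1.49% and 2.99%.

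Slc7a1 (CAT1), which carries arginine and lysine, had 964, 903, 703 and 808 CPM in CTRL sham and 624, 417, 264 and 409 CPM in YT-iKO sham. After MCAo it had 885, 605, 529 and 1031 CPM in CTRL and 377, 231, 379.8 and 432 CPM in YT-iKO. The genotypes did not overlap in either surgery, and the log2 differences were −0.98 (SE 0.29) and −1.10 (SE 0.29), with edgeR adjusted p = 0.990 and 0.553. DESeq2 called it in both (adjusted p = 0.0652 and 0.0091), and so did edgeR with TMM factors taken from the 9123 genes at 10 CPM or more, called abundant-gene factors below (adjusted p = 0.0331 and 0.00427). Under the main test it is not a called gene.

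The 2 chains of the LAT1 exchanger had differences of like size. Slc7a5, the light chain, measured 1728, 1811, 2118 and 1761 CPM in CTRL sham and 1491, 1218, 1081 and 833 CPM in YT-iKO sham. Slc3a2, the heavy chain, ranged from 402 to 452 CPM in CTRL sham and from 222 to 348 CPM in YT-iKO sham. Neither overlapped after sham, with log2 differences of −0.68 (SE 0.28) and −0.73 (SE 0.27), and both overlapped after MCAo, at −0.56 (SE 0.28) and −0.44 (SE 0.27). The value of Slc3a2 after MCAo was −0.67 without replicate 1 of YT-iKO MCAo and −0.27 without replicate 2. None of these 4 values passed edgeR's test.

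The organic anion carrier Slco1a4 had 3304, 2835, 2937 and 2495 CPM in CTRL sham and 1899, 1989, 1086 and 1419.7 CPM in YT-iKO sham, without overlap, and 3179, 2019, 1602 and 2776 CPM in CTRL MCAo against 1540.3, 874, 1309 and 1656 CPM in YT-iKO MCAo, with overlap. Its log2 differences were −0.86 (SE 0.29) and −0.83 (SE 0.29). For Slco1c1 they were −0.68 (SE 0.28) and −0.66 (SE 0.28). Slco2a1 of the same family lay on the other side of 0, at 0.45 (SE 0.43) and 1.25 (SE 0.43), the latter the highest of the 208 carriers after MCAo. That value was 0.62 without replicate 1 of YT-iKO MCAo and 1.76 without replicate 1 of CTRL MCAo. None of the 3 passed edgeR's test.

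Among carriers of metals, Slc40a1 (ferroportin), which exports iron, measured 357, 300.1, 329.9 and 279 CPM in CTRL sham and 224, 195, 124 and 184 CPM in YT-iKO sham. Slc31a1 (CTR1), which imports copper, measured 112, 110.4, 108 and 99.1 CPM and 79.6, 57.9, 46.1 and 57.6 CPM. Both were without overlap after sham, at log2 differences of −0.80 (SE 0.25) and −0.83 (SE 0.27), and overlapped after MCAo, at −0.72 (SE 0.25) and −0.61 (SE 0.27). Neither passed edgeR's test in either surgery, whereas with abundant-gene factors both were called in both; Slc31a1 was named after its values were seen.

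The most abundant carriers of sugar and taurine overlapped between the genotypes. Slc2a1 held 2358, 2696, 2970.4 and 2591 CPM in CTRL sham and 2519, 1571, 1893 and 1727 CPM in YT-iKO sham, a log2 difference of −0.46 with a 95% interval from −1.14 to 0.22. After MCAo its difference was −0.33 (−1.01 to 0.34), with 3964, 2653, 2141 and 3618 CPM in CTRL and 3662, 1104, 2004 and 3046 CPM in YT-iKO. That value was −0.68 without replicate 1 of YT-iKO MCAo and −0.12 without replicate 2. Slc6a6 differed by 0.12 (−0.53 to 0.76) after sham and by 0.41 (−0.23 to 1.06) after MCAo. Leaving out 1 library gave 0.03 (YT-iKO sham replicate 1) to 0.29 (YT-iKO sham replicate 3) and 0.25 (YT-iKO MCAo replicate 4) to 0.58 (CTRL MCAo replicate 1). These intervals leave room for changes of the size seen in several uncalled genes above, so equal levels were not shown.

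None of the other abundant genes passed. After sham the log2 difference was −0.40 (95% interval −0.99 to 0.18) for the zinc importer Slc39a10, −0.32 (−0.86 to 0.21) for the glutamine carrier Slc38a3 and −0.33 (−0.87 to 0.22) for the zinc exporter Slc30a1. After MCAo these were −0.38, −0.32 and −0.25. The scaffold gene Slc9a3r2 stood at −0.07 (−0.59 to 0.46) after sham, or 0.08 with abundant-gene factors, and 0.08 (−0.45 to 0.60) after MCAo. Slco2b1, which carries steroid sulfates, had −0.49 and −0.58.

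Over the 33 blood-brain barrier carriers the differences leaned to one side. The list was drawn up with earlier results of these data known and holds the 3 called carriers. The lean is therefore a description and not a result. The median level of the list was 129 CPM, beside 20.2 CPM over all 208 carriers, and the sets compared with it were not matched in level. After sham 29 were below 0 and 4 above, with a median log2 difference of −0.33, beside −0.10 over all 208 carriers, −0.10 over the genes at 5 CPM or more and 0.11 over all genes tested. After MCAo 28 were below 0 and 5 above, with a median of −0.26, beside −0.02, 0.02 and 0.03. In 27 of the 33 both differences were below 0. The 175 other carriers had medians of −0.07 and −0.01, with 67 below 0 in both and 44 above 0 in both. With abundant-gene factors the barrier list had medians of −0.18 and −0.27, with 25 and 27 of its members below 0, and the 175 others had medians of 0.08 and 0.01, with 44 below 0 in both and 81 above.

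**Figure D3:**
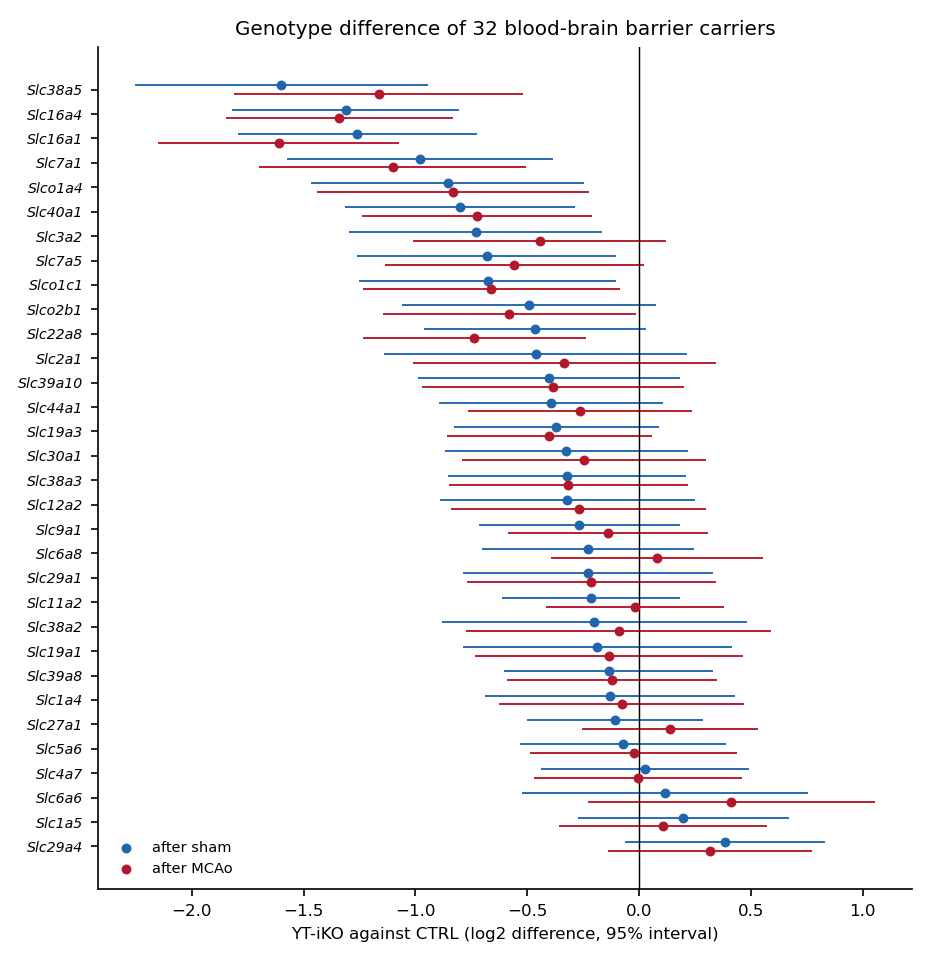
Log2 difference of YT-iKO against CTRL, with its 95% interval from the SE and the degrees of freedom of edgeR's fit, for 32 of the 33 blood-brain barrier carriers in order of the value after sham; blue is after sham and red after MCAo. The intervals of Slc38a5, Slc16a4, Slc16a1, Slc7a1, Slco1a4, Slc40a1 and Slco1c1 lie below 0 in both, and those of 21 of the other 25 carriers plotted cross 0 in both.

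Marker sums of some cell types lay lower in YT-iKO sham and those of others higher. Summed over the list, the 7 endothelial markers held 12163 to 13278 CPM in CTRL sham and 7372 to 13023 CPM in YT-iKO sham, a log2 difference of −0.31 (exact permutation p = 0.114, n = 4 a group, two-sided). For 7 pericyte markers the sums were 729 to 917 and 531 to 841 CPM (−0.41; exact p = 0.0571), and for 5 astrocyte markers 67.0 to 84.3 and 44.3 to 63.3 CPM (−0.49; exact p = 0.0286, the smallest that 4 against 4 libraries can give). The astrocyte sum was mostly Gja1 (53.9 to 69.0 and 32.5 to 51.6 CPM), while Gfap had 4.04 to 6.11 and 4.63 to 8.23 CPM and the other 3 overlapped between the genotypes as well. After MCAo the differences of these sums were −0.11, −0.21 and −0.27. Other lists were higher in YT-iKO sham, by 0.35 for 4 smooth muscle markers (exact p = 0.0857) and 0.38 for 5 neuron markers (exact p = 0.0857). The smooth muscle sum was mostly Myh11 (24.8 to 34.5 CPM in CTRL sham and 33.0 to 48.2 CPM in YT-iKO sham). The neuron sum was mostly Stmn2 (22.7 to 28.9 and 29.8 to 43.4 CPM). The differences were 0.42 for 5 oligodendrocyte markers (exact p = 0.2) and 0.64 for 2 red cell markers (exact p = 0.229). For 5 neutrophil and lymphocyte markers it was 0.39 (exact p = 0.343). After MCAo that list was at −0.41 (exact p = 0.714), the neuron list at 0.45 (exact p = 0.114) and 3 choroid plexus markers at −0.88 (exact p = 0.457). The oligodendrocyte and red cell lists were then at 0.37 and 0.39 (exact p = 0.286 each). The even background reached 0.568 CPM per kilobase of exon in YT-iKO sham and 0.207 in CTRL sham. Its part in the sums of low markers was not tested. No gene of the endothelial, pericyte and astrocyte lists was at 0 in any library. The part of these cells in the differences of the carriers was not tested.

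Several classes showed small differences by genotype. None of the 35 mitochondrial carriers, of the 25 carriers of the ER and Golgi or of the 12 of nucleosides and vitamins had an unadjusted p under 0.05 after either surgery. Of all genes at 5 CPM or more, 3.22% did after sham and 2.99% after MCAo. A count of 0 in classes this small is near that share. Mitochondrial carriers spanned log2 differences from −0.36 to 0.36 after sham and from −0.26 to 0.33 after MCAo, with medians of −0.07 and 0.01, of which the first was 0.07 with abundant-gene factors. The 36 carriers of amino acids were split about 0, with 18 below it after sham and 17 after MCAo (12 and 17 with abundant-gene factors), although 6 and 2 of them had an unadjusted p under 0.05. In the class of monocarboxylates and dicarboxylates, 5 of 8 were below 0 in each surgery (3 and 5 with abundant-gene factors), and 3 of 8 had an unadjusted p under 0.05, among them both called genes. Of the 7 carriers typical of other brain cells, Slc1a3 (GLAST), the glutamate carrier of astrocytes, was at −0.63 (SE 0.26) after sham without overlap and did not pass, while the median of the 7 was −0.00, with 3 of them above 0. All carriers together had 188 of 208 within a log2 difference of 0.5 after sham and 192 after MCAo.

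**Figure D4:**
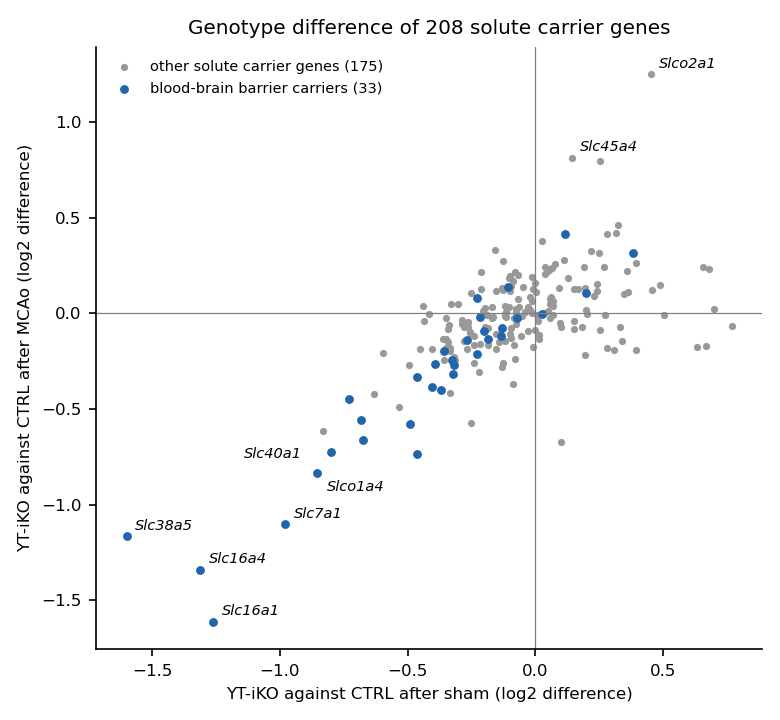
Log2 difference of YT-iKO against CTRL after sham (x axis) and after MCAo (y axis) for 208 solute carrier genes; blue points are 33 blood-brain barrier carriers. No library enters both axes, and 94 genes are below 0 in both and 47 above 0 in both (67 and 85 with abundant-gene factors).

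The direction of small differences depends on the scaling, and so does overlap between groups. Scaled by library totals alone, Slc38a5, Slco1a4, Slc40a1 and Slc31a1 did not overlap between the genotypes after MCAo. Abundant-gene factors moved the median log2 difference of all genes tested from 0.11 to 0.30 in the genotype comparison after sham and from 0.07 to 0.21 for MCAo in CTRL. They left 79 carriers below 0 after sham in place of 135, while Slc16a1, Slc16a4, Slc38a5 and Slc7a1 were at −1.12, −1.17, −1.44 and −0.86.

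In CTRL mice no carrier passed the test between MCAo and sham, while 0.183% of all genes tested were called higher and 0.0322% lower, and 0.387% and 0.0774% of those at 5 CPM or more. By edgeR 19 carriers had an unadjusted p under 0.05, beside 3.5% of all genes tested and 6.22% of those at 5 CPM or more. DESeq2 called 2 carriers, beside 0.549% of all genes and 1.38% of those at 5 CPM or more, and limma-voom with quality weights 69, beside 24.2% and 36.7%. Groups did not overlap for 4 higher and 11 lower carriers, beside 2.24% and 1.9% of all genes tested and 2.12% and 3.5% of those at 5 CPM or more.

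In YT-iKO mice 1 carrier, Slc45a4, was called higher after MCAo and none lower, beside 0.277% and 0.0418% of all genes tested and 0.671% and 0.112% of those at 5 CPM or more. There 19 carriers had an unadjusted p under 0.05 by edgeR, beside 3.01% and 6.43%. DESeq2 called 8, beside 0.646% and 1.72%, and limma-voom 42, beside 18.1% and 25.4%. Groups did not overlap for 2 higher and 4 lower carriers, beside 0.785% and 0.499% of all genes tested and 1.32% and 0.662% of those at 5 CPM or more. Restricting the fit to the 2 groups compared gave no call.

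Slc45a4, a member of a family of proton-coupled sugar carriers, measured 16.1, 17.6, 18.8 and 18.5 CPM in YT-iKO sham and 47.6, 34.6, 18.3 and 50.2 CPM in YT-iKO MCAo. It rose 2.12-fold (log2 difference 1.09, SE 0.25) at an edgeR adjusted p = 0.1 after rounding, just under the threshold, and replicate 3 lay within the sham range. The call was lost in 13 of 16 fits that left out 1 library. In CTRL the levels were 11.4, 15, 17.6 and 20.3 CPM after sham and 24.9, 17.0, 19.1 and 24.7 CPM after MCAo (log2 difference 0.42, SE 0.25; edgeR adjusted p = 1.00).

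Carriers with lower values after MCAo in both genotypes included Slc22a8, Slc19a3 and Slc29a4 of the barrier list. Of the 33 members of that list 15 were below 0 in both genotypes and 13 above 0 in both. The median log2 difference of the list was −0.10 in CTRL and 0.02 in YT-iKO, or −0.01 and −0.04 with abundant-gene factors. Single members ranged from −0.71 to 0.61 in CTRL and from −0.91 to 0.97 in YT-iKO. Slc22a8 (OAT3), which takes up organic anions, held 687, 636, 663 and 550.4 CPM in CTRL sham and 488, 380.3, 342 and 424 CPM in CTRL MCAo. In YT-iKO it held 609, 532, 306 and 392 CPM after sham and 253, 182, 261 and 284 CPM after MCAo. Neither pair of groups overlapped, and the log2 differences were −0.63 (SE 0.24; edgeR adjusted p = 1.00) and −0.91 (SE 0.24; adjusted p = 0.230). After MCAo Slc22a8 did not overlap between the genotypes either, at −0.74 (SE 0.24; edgeR adjusted p = 1.00). DESeq2 called that difference (adjusted p = 0.0840), as did limma-voom, the fits with abundant-gene factors or with the background taken off, and the fit without the 4 libraries of highest background.

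Slc19a3, a thiamine carrier, gave 278, 271, 268 and 221 CPM in CTRL sham and 189, 147, 135 and 180.3 CPM in CTRL MCAo. In YT-iKO it gave 242, 209, 148 and 204 CPM after sham and 120.0, 83.8, 142 and 148 CPM after MCAo. The lowest sham library lay above the highest MCAo library in each genotype, by little in YT-iKO. Its log2 differences were −0.67 (SE 0.22) and −0.70 (SE 0.22), with edgeR adjusted p = 0.708 and 0.515.

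Nearest to the threshold in CTRL stood Slc26a10, of a family of anion exchangers, with 125, 114, 123 and 113 CPM after sham and 87.1, 47.0, 53.0 and 51.9 CPM after MCAo (log2 difference −0.99, SE 0.24; edgeR adjusted p = 0.160). Its values in YT-iKO were 154, 176, 91.6 and 157 CPM after sham and 65.8, 64.9, 76.0 and 112 CPM after MCAo, with overlap (−0.86, SE 0.24; edgeR adjusted p = 0.315). Of the exon length of Slc26a10, 17.8% is shared with B4galnt1 on the other strand, and how strand was treated in counting is not given. DESeq2 called it in both genotypes (adjusted p = 0.00655 and 0.0239).

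Slc29a4, which carries monoamines, was a low gene with the same direction. Its levels were 8.94, 9.74, 11.5 and 11.7 CPM in CTRL sham and 4.28, 7.37, 8.07 and 5.79 CPM in CTRL MCAo, and 15.8, 12, 11 and 15.8 CPM in YT-iKO sham and 8.58, 8.58, 7.58 and 7.04 CPM in YT-iKO MCAo. The surgeries did not overlap in either genotype (log2 differences −0.71 and −0.78, SE 0.22 each), and neither value passed edgeR's test.

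Other carriers had higher values after MCAo. Slc12a7 (KCC4), which exports potassium with chloride, held 82.1, 92.9, 100.3 and 123 CPM in CTRL sham and 255, 130.3, 112 and 192 CPM in CTRL MCAo. In YT-iKO it held 88.1, 75.5, 59.7 and 71.1 CPM after sham and 199, 112, 94.3 and 266 CPM after MCAo, without overlap. The log2 differences were 0.79 (SE 0.30; edgeR adjusted p = 1.00) and 1.19 (SE 0.30; adjusted p = 0.175).

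The zinc importer Slc39a1 (ZIP1) measured 42.3, 42.1, 41.6 and 47.4 CPM in CTRL sham and 110.0, 53.5, 55.7 and 98.7 CPM in CTRL MCAo. In YT-iKO the values were 43.5, 25.6, 23.6 and 35.0 CPM after sham and 109, 41.3, 46.8 and 129 CPM after MCAo. The differences were 0.87 (SE 0.32; edgeR adjusted p = 0.985) in CTRL, without overlap, and 1.35 (SE 0.33; adjusted p = 0.120) in YT-iKO, with overlap.

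Slco2a1, which takes up prostaglandins, measured 13.5, 16.4, 17.3 and 24.0 CPM in CTRL sham and 73.9, 24.1, 22.4 and 23.4 CPM in CTRL MCAo. In YT-iKO the 4 sham libraries held 27.3, 19.1, 28.2 and 22.9 CPM and the MCAo libraries 165, 37.6, 32.4 and 106 CPM. One CTRL library carried most of the difference in CTRL, and replicates 1 and 4 in YT-iKO. Without replicate 1 of the MCAo group the log2 differences were 0.44 in CTRL and 1.16 in YT-iKO. With all libraries the log2 differences were 1.01 (SE 0.43; edgeR adjusted p = 1.00) and 1.81 (SE 0.43; adjusted p = 0.120).

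**Figure D5:**
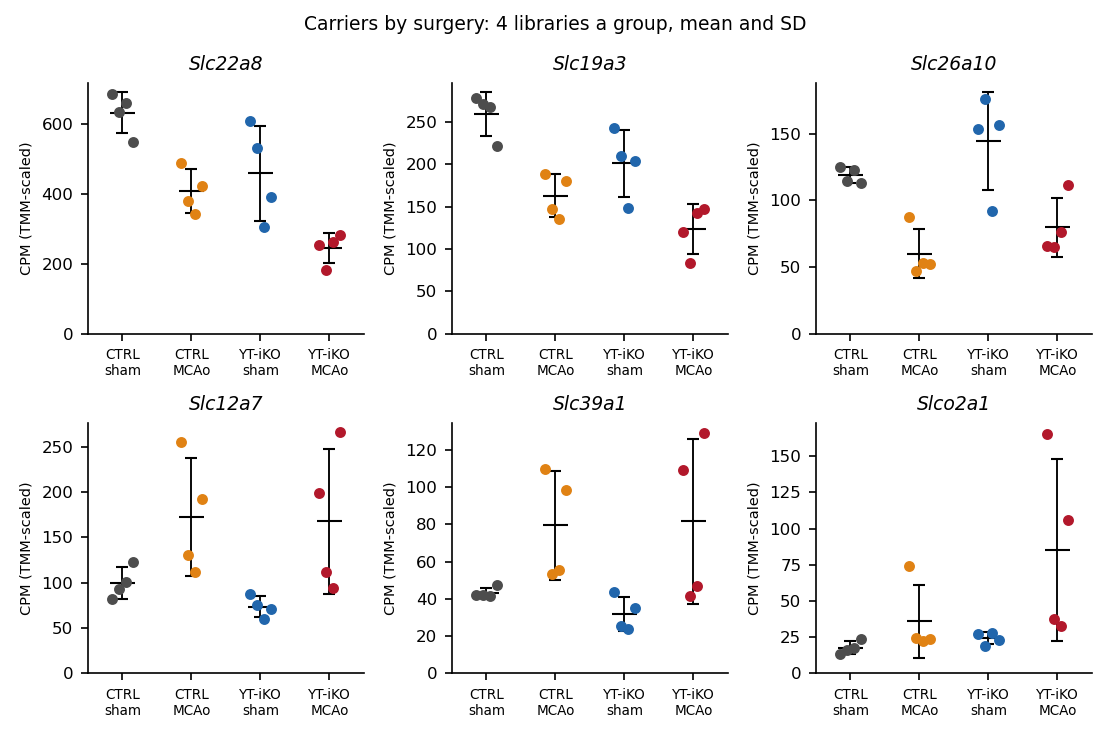
Level (CPM scaled by TMM factors, axes from 0) of 6 carriers in each of 16 libraries, by surgery within genotype; points are libraries, and bars are the mean and SD of 4. Slc22a8 and Slc19a3 are lower after MCAo in every library of both genotypes, and in Slc12a7, Slc39a1 and Slco2a1 the MCAo groups spread more widely than the sham groups.

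In classes with smaller differences, the gene named for its size in any of the 4 pairwise comparisons was Slc35e4 in the ER and Golgi class (log2 differences 0.64 in CTRL and 0.65 in YT-iKO), Slc25a30 among mitochondrial carriers (0.25 and 0.59, while the lowest value of that class in CTRL was −0.48), Slc66a2 among lysosomal carriers (−0.33 and −0.17) and Slc44a5 among choline carriers (−0.31 and −0.40). Slc44a5 did not overlap between the surgeries in either genotype at levels of 6.36 to 13.5 CPM. Slc9a3r2 held 749 to 1007 CPM in CTRL sham and 504 to 724 CPM in CTRL MCAo, without overlap (−0.59, SE 0.25). None of them passed edgeR's test.

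Markers of other cells were also compared between sham and MCAo. In CTRL the sum of 5 fibroblast markers was 16.9 to 19.1 CPM after sham and 26.1 to 31.5 CPM after MCAo (exact permutation p = 0.0286, n = 4 a group), with Lum at 0 in 1 library. The sum of 5 neuron markers was 31.7 to 38.2 and 20.3 to 28.5 CPM (exact p = 0.0286), which was mostly Stmn2 (22.7 to 28.9 and 7.30 to 21.1 CPM), and the other 4 overlapped between the surgeries. The sum of 3 choroid plexus markers was 15.2 to 29.1 and 15.5 to 88.9 CPM (exact p = 0.114). In YT-iKO the log2 differences of these sums were 0.49 (exact p = 0.143), −0.40 (exact p = 0.171) and 0.32 (exact p = 0.686). For 5 neutrophil and lymphocyte markers they were 0.51 in CTRL (exact p = 0.0571) and −0.30 in YT-iKO (exact p = 0.771). The endothelial sum differed by −0.17 in CTRL and 0.02 in YT-iKO on the log2 scale. The part of these cells in the differences of the carriers was not tested.

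Replicates 1 and 4 were the high ones in CTRL MCAo for Slc16a1, Slc16a4, Slc38a5 and Slco1a4, among others. In both MCAo groups they were the high ones for Slc12a7, Slc39a1 and Slc45a4, and in YT-iKO MCAo for Slco2a1. Those libraries also had the lower even background: 0.105 and 0.164 CPM per kilobase in CTRL MCAo, against 0.328 and 0.392 in replicates 2 and 3, and 0.147 and 0.0308 in YT-iKO MCAo, against 0.576 and 0.443. They had the lower TMM factors as well: 0.743 and 0.852 against 1.14 and 1.23 in CTRL MCAo, and 0.865 and 0.746 against 1.40 and 1.24 in YT-iKO MCAo. With the background taken off, the YT-iKO differences were 1.13 for Slc12a7, 1.26 for Slc39a1, 1.81 for Slco2a1 and 1.10 for Slc45a4. With abundant-gene factors in place of the TMM factors they were 1.07, 1.21, 1.61 and 0.98. A fit with the replicate number as a block called all of these YT-iKO differences, although the labels state no pairing. The part of the background and of the factors in the spread between these replicates was not tested.

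Slc16a3 (MCT4), a lactate carrier named after its values were seen, stood at 4.21, 5.13, 7.93 and 8.77 CPM in CTRL sham and at 13.0, 8.82, 10.4 and 14.2 CPM in CTRL MCAo, without overlap (log2 difference 0.84, SE 0.25; edgeR adjusted p = 0.438). In YT-iKO it stood at 5.54, 6.69, 8.16 and 7.51 CPM after sham and at 7.07, 7.58, 6.28 and 8.29 CPM after MCAo, with overlap. Between the genotypes after MCAo the difference was −0.67 (SE 0.24; edgeR adjusted p = 1.00), without overlap. Scaled by library totals alone, Slc16a3 overlapped between the genotypes after MCAo. The even background of reads would supply 16.6% of its mean level.

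The test of the interaction asked whether the MCAo difference depended on the genotype. It called 0 of 208 carriers by edgeR, by DESeq2 and by limma-voom, and 0.0% of all genes tested by edgeR. For DESeq2 and limma-voom the share of all genes is not given. At an unadjusted p under 0.05 there was 1 carrier, Slc16a3 (log2 difference −0.77, SE 0.35; edgeR adjusted p = 1.00), beside 0.373% of all genes tested and 0.258% of those at 5 CPM or more. A p that misses the threshold does not show that the genotypes respond alike.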

How the data were processed

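RNA-seq libraries from sorted brain endothelial cells of 4 groups were used, 4 pools of mice per group. Per the labels and the study's methods, the authors made SMART-Seq libraries, aligned reads with STAR 2.7.8a to GRCm38 and deposited raw counts per gene with no normalization; the counter and its handling of strand are not given in the sources used here. From these counts edgeR 4.0.16 (R 4.3.3) was run on all 37003 genes: filterByExpr (count of 10, total of 15) kept 31085, libraries were scaled with TMM, and a quasi-likelihood model over all 16 libraries gave 5 contrasts (genotype after each surgery, MCAo in each genotype, and the interaction). Calls are Benjamini-Hochberg adjusted p under 0.1 over all genes tested. The common dispersion was 0.16. Levels are CPM, 95% intervals are the log2 difference with its SE times the t quantile at the fit's degrees of freedom, and no-overlap means that all 4 libraries of a group lay on 1 side of the other group. With 4 and 4 libraries there are 70 assignments, so that 0.0286 is the smallest exact p. The study states that each replicate is a pool of mice, and the labels give only a replicate number.

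The genes, classes and lists were chosen with earlier results of these data known. Named are called carriers, the 12 of highest mean, the barrier list, those at the limit of 5 CPM, carriers of other brain cells, the member of each class with the largest difference, Yap1 and Wwtr1; Slc26a10, Slc16a3, Slc31a1, Slc4a5 and the genes that the symbol alone admitted were named after their values were seen. Some genes in the counts are not reported here by name. One gene (Slc4a1ap) was moved to the class without transport function after the files were seen. Positions are from GENCODE M21, which held 36861 of the genes. Replicate numbers are shared by the groups. Deviations from the group mean, over the 1000 genes most variable within groups, were correlated between libraries of different groups. The median was 0.199 for libraries with the same number (15 of 24 pairs above 0.1) and −0.115 for others (30 of 72 above 0.1). Not every same-numbered pair passed 0.1, and the labels name no shared animal, batch or day. Same-numbered libraries were therefore not treated as pairs. Alternatives were RLE factors, abundant-gene TMM factors, DESeq2 1.42.0, limma 3.58.1 (voom), other filters and thresholds, 2-group fits, a replicate block, removal of the even background and leaving out each library. The steps were tested on simulated data. Tables and plots used Python 3.11.15, pandas 2.3.3, SciPy 1.17.1 and matplotlib 3.10.9.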

Additional observations from a re-analysis of the deposited data

Results flagged for a closer look

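In 4 of 88 sets of 4 libraries examined, 1 library stood apart from the others by the gap test for a lone value, and chance alone gives about 1 in 20. Slc39a1 was 47.4 CPM in CTRL sham replicate 4 and 41.6 to 42.3 CPM in the other 3. Slc26a10 was 87.1 CPM in CTRL MCAo replicate 1 and 47.0 to 53.0 CPM in the others. Slco2a1 was 73.9 CPM in the same library and 22.4 to 24.1 CPM in the others. The carriers' share of all counts was 2.10% in YT-iKO sham replicate 1 and 1.88% to 1.91% in the others.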

How the results depend on the processing

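The number of carriers called moved with the method far more than the single differences did. None of the single-gene differences recomputed under every alternative changed sign, whereas that of Slc9a3r2 after sham did so with abundant-gene factors. For genotype after sham (3 called), abundant-gene factors gave 7, limma-voom 9, the 2 groups alone 7, the even background taken off 7, and an adjusted p under 0.05 gave 1. For genotype after MCAo (2 called), these gave 11 with abundant-gene factors, 5 with DESeq2, 10 with limma-voom and 11 without the background. For MCAo in CTRL (0 called), RLE factors gave 1, abundant-gene factors 15, DESeq2 2, limma-voom 69, no filter 1, the filter of CPM above 1 in 4 libraries 1, the 2 groups alone 12 and the background taken off 10. For MCAo in YT-iKO (1 called), abundant-gene factors gave 13, DESeq2 8, limma-voom 42, the stricter filter 6, the 2 groups alone 0, the background taken off 11 and an adjusted p under 0.05 gave 0. Leaving out the 4 libraries of highest background, chosen after seeing the data, gave 5, 7, 11 and 26 in the same order. The share of all genes at 5 CPM or more that was called moved with these settings: in the same order it was 1.04%, 1.55%, 4.65% and 4.55% with abundant-gene factors, 0.525%, 0.568%, 1.38% and 1.72% with DESeq2, 1.1%, 1.72%, 36.7% and 25.4% with limma-voom, 1.06%, 0.267%, 4.79% and 0.146% with the 2 groups alone, 0.861%, 1.16%, 3.08% and 3.07% without the background, 0.637%, 1.16%, 3.88% and 9.25% without those 4 libraries, and 0.249%, 0.189%, 0.465% and 0.783% in the test as reported. For MCAo in CTRL that share was 0.705% with RLE factors, 0.68% with no filter and 0.895% with the stricter filter. For MCAo in YT-iKO it was 1.1% with the stricter filter. Leaving out single libraries gave 0 to 3, 0 to 3, 0 to 1 and 0 to 4 carriers called. The share of all genes called in those fits is not given, so these counts show nothing particular to carriers. The interaction gave 0 carriers throughout, and with abundant-gene factors 0 of all 31085 genes tested. For the other alternatives its share of all genes is not given. A mean of at least 2 CPM admitted 322 genes in place of 208. The cause of these shifts was not tested.

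With the replicate number as a block the counts were 3, 2, 1 and 4, the 4 being Slc12a7, Slc39a1, Slc45a4 and Slco2a1. Of all genes at 5 CPM or more this fit called 0.336%, 0.292%, 0.886% and 1.05% in the same order. Same-numbered libraries had a median correlation of 0.199 and others of −0.115. Above 0.1 were 15 of 24 same-numbered pairs and 30 of 72 others. Of 16 libraries 7 correlated best with their own number. This is at most a weak hint of pairing from the data, which the labels do not state. Over the 16 fits without 1 library the log2 difference of Slc16a1 ranged from −1.44 to −1.15 after sham and from −1.77 to −1.46 after MCAo, and that of Slc16a4 from −1.41 to −1.18 and from −1.51 to −1.22. Counts of reads limit low genes most: the background would supply over 50% of the level of Slc7a11, Slc38a1, Slc24a2 and Slco5a1.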
